A study of Caenorhabditis elegans with 6 samples.

Results

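The F-box B (fbxb) and F-box C (fbxc) genes of Caenorhabditis elegans were examined in whole larvae held in first-stage (L1) arrest. They were taken as every gene whose symbol in the deposited table is fbxb or fbxc followed by a number, which gave 152 of 45519 listed genes: 104 fbxb and 48 fbxc genes, all annotated as protein-coding. Their levels were compared between the mutant linc-133(aqz 3), which bears an allele of a gene for a long intervening noncoding RNA, and the N2 strain, the standard laboratory wild type. Worms of both strains were collected as synchronized eggs, kept for 3 days at 20 °C in M9, a salt buffer without food, and harvested as arrested L1 larvae, with 3 RNA sequencing libraries per strain. What the allele alters is not stated in the labels, nor whether each library had its own culture. The p-values below thus rest on the spread among these 6 libraries, part or all of which may be technical.

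F-box proteins are the interchangeable substrate receptors of SCF ubiquitin ligases. In these complexes a cullin scaffold carries a RING protein at one end and a Skp1 adaptor at the other; the adaptor holds the F-box protein, which brings in the protein to be tagged with ubiquitin. Caenorhabditis elegans has a greatly expanded set of F-box genes and of Skp1-related (skr) genes, many in groups of neighbouring copies. The specific substrates of most of these F-box proteins are not known, and for this reason no role is given below for single fbxb and fbxc members.

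The domain entries in the deposited gene descriptions separate the families. Of the 104 fbxb genes, 81 list the F-box associated domain (Pfam PF07735) alone, 11 list it together with the F-box itself (PF00646), 1 lists the F-box alone and 11 list no entry. Of the 48 fbxc genes, 30 list a different domain of unknown function, DUF3557 (PF12078), and 18 list none. The genes are compact: a member has a median of 2 exon blocks, with a range of 1 to 6, and the median is 2 for fbxb genes and 3 for fbxc genes.

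The depth was similar in the strains, with 16108063 to 18440824 reads on genes per mutant library and 16758445 to 18556695 per wild-type library. The totals by which the deposited levels were scaled, inferred from the values, departed from these reads. They were 1.12, 1.00 and 0.90 times as large in mutant replicates 1, 2 and 3. In wild-type replicates 1, 2 and 3 they were 1.03, 0.99 and 1.02 times as large. linc-133 itself (chromosome II, 7837826 to 7841485, build WBcel235) had 6, 2 and 2 reads in mutant replicates 1, 2 and 3, against 9, 6 and 5 in wild-type replicates 1, 2 and 3, so it was near the detection limit in both strains. Markers of neurons, body wall muscle, pharynx muscle, intestine and epidermis were detected, and none of the 5 adult yolk genes reached 1 FPKM (fragments per kilobase, a level scaled for gene length and sequencing depth). Mutant replicate 3 stood out in muscle. Its body wall muscle markers summed to 4621 FPKM, against 2220 to 3116 FPKM in the other libraries, and its pharynx muscle markers to 947, against 512 to 756 FPKM. Its neuron sum of 1844 FPKM lay among the others, at 1662 to 1968 FPKM. The cause was not tested. Testing covered the 16794 genes that averaged 1 FPKM or more. None passed an adjusted p of 0.05 in limma, 1213 were higher and 1088 lower in the mutant at an unadjusted p under 0.05, and with other settings 1 gene (0.00651%) passed among genes averaging 10 or more reads, 28 (0.167%) in limma's voom on recovered reads and 23 (0.15%) in voom on genes averaging 10 or more reads. "Higher" and "lower" by unadjusted p below therefore mark genes that did not pass the adjusted threshold, and 0 of the 152 members passed it in limma or in voom.

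At the level of detection, both families were weakly expressed. A mean of at least 1 FPKM was reached by 65 of 104 fbxb genes (62.5%) and 24 of 48 fbxc genes (50%), against 105 of 171 genes of the F-box A (fbxa) family (61.4%) and 69.4% of all listed protein-coding genes. The median level of a gene over the 6 libraries was 1.45 FPKM in the fbxb family and 1.01 FPKM in the fbxc family, against 1.90 FPKM in the fbxa family and 5.56 FPKM over all protein-coding genes. The families were spread differently around those medians. The quartiles of the fbxb genes were 0.682 and 2.48 FPKM with a maximum of 10.96 FPKM, while those of the fbxc genes were 0.112 and 3.63 FPKM with a maximum of 58.6 FPKM. A level of 5 FPKM was reached by 6 fbxb and 8 fbxc genes, so that the smaller family held more of the stronger members. The mean levels summed to 219.6 FPKM over the 48 fbxc genes and to 200.7 FPKM over the 104 fbxb genes.

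**Figure D1:**
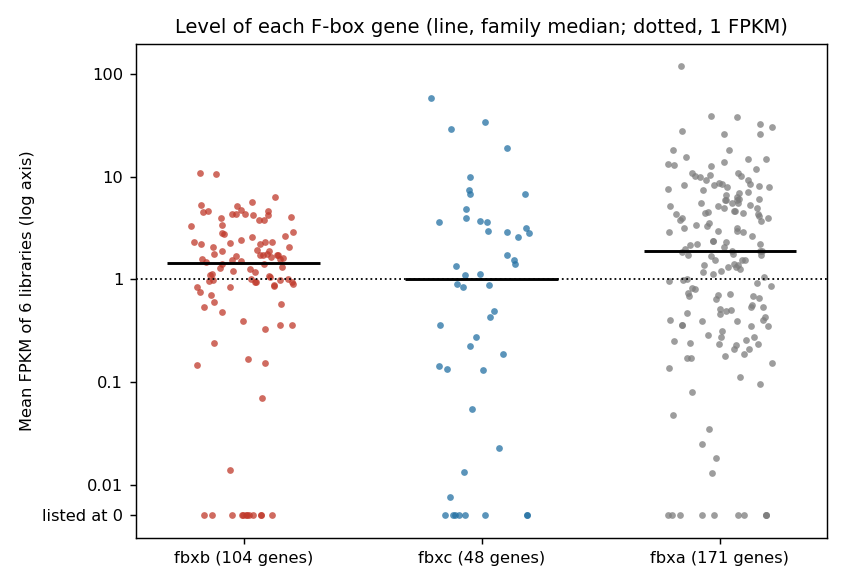
Mean level of each listed gene over 6 libraries, in FPKM on a log axis, for the fbxb, fbxc and fbxa families, with genes listed at 0 drawn at the bottom and a line at each family's median. The fbxb genes gather near their median of 1.45 FPKM, while the fbxc genes reach from 0 to 58.6 FPKM.

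The detection threshold fell inside a dense part of the distribution. Just below it were fbxb-33 at 0.970 FPKM, fbxb-71 at 0.981 FPKM and fbxb-112 at 0.993 FPKM, and just above it fbxb-52 at 1.01 FPKM, fbxb-18 at 1.02 FPKM and fbxb-20 at 1.06 FPKM. Lowering the threshold to 0.5 FPKM took in 81 fbxb and 27 fbxc genes. Of the members, 20 (12 fbxb and 8 fbxc) were listed at 0 in all 6 libraries. These 20 lay mostly where copies are dense: 16 were on chromosome II and 19 in a genomic cluster as defined below, and 13 of the 20 overlapped another protein-coding gene, against 38 of the 132 members with a read. The ubiquitin gene ubq-2 was also listed at 0 in all libraries, so a 0 in the table need not mean that a gene was silent.

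The fbxb genes of highest mean level were fbxb-53 and fbxb-88 on chromosome II, fbxb-66 and fbxb-69 on chromosome I, fbxb-7 on chromosome V and fbxb-84 on chromosome III. fbxb-88 (gene 173831) measured 14.9, 8.97 and 8.37 FPKM in the mutant libraries and 12.7, 8.77 and 9.64 FPKM in the wild-type libraries, with overlapping groups. fbxb-66 (gene 189784) measured 10.3, 8.34 and 4.64 FPKM in the mutant and 4.90, 5.76 and 4.02 FPKM in the wild type; mutant replicate 3 lay within the wild-type range and the other mutant libraries above it. Its log2 difference of 0.52 ± 0.28 (SE) missed the unadjusted threshold in limma (adjusted p = 0.461) and passed it, at 0.81, without mutant replicate 3. fbxb-69 averaged 6.41 ± 0.860 FPKM in the mutant and 5.07 ± 0.262 FPKM in the wild type, and fbxb-7 averaged 5.83 ± 0.870 FPKM in the mutant and 4.89 ± 0.424 FPKM in the wild type (SD, n = 3 each). Neither had an unadjusted p under 0.05.

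The fbxb family as a whole stood higher in the mutant libraries. Over the 65 tested fbxb genes the median level was 2.80, 2.83 and 2.12 FPKM in mutant replicates 1, 2 and 3, against 1.78, 1.65 and 1.65 FPKM in wild-type replicates 1, 2 and 3. Every mutant library was above every wild-type library, with mutant replicate 3 nearest to the wild type. These medians are partly set by the filter, as 14 of the 65 had a wild-type mean under 1 FPKM and passed through the mutant values. The sums that follow cover all 104 genes without that filter. Summed over all 104 genes, the fbxb levels came to 263, 257 and 199 FPKM in the mutant, against 182, 146 and 158 FPKM in the wild type. The number of fbxb genes that reached 1 FPKM in a single library was 75, 75 and 70 in the mutant, against 57, 49 and 47 in the wild type. Over all protein-coding genes that number was 13895, 13660 and 13747 in the mutant and 13706, 13781 and 13909 in the wild type. As these are bulk RNA samples, more cells that express a gene and more RNA of it per cell cannot be told apart.

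Gene by gene, 20 of the 65 tested fbxb genes were higher in the mutant at an unadjusted limma p under 0.05, against 7.22% of all 16794 tested genes, and 1 was lower, against 6.48%. The median log2 difference (mutant minus wild type, on log2(FPKM + 1)) was 0.50 over the 65 genes, against -0.00 over all tested genes. The 65 ranged from -0.51 to 1.00. Of them 54 were positive and 11 negative, against 8366 positive among the 16794 tested genes. In mutant replicates 1, 2 and 3, 62, 55 and 45 of the 65 lay above the wild-type mean. In wild-type replicates 1, 2 and 3 it was 52, 20 and 34. Members thus moved together by library, and the 65 genes are not separate replicates of the strain. In 32 of the 65 genes every mutant library exceeded every wild-type library, against 10.5% of all tested genes, and in 1 every mutant library was below, against 9.54%. Adjusted p-values in limma were 0.162 or more throughout the family. The level of the genes bears on these shares. Among protein-coding genes with means from 1 to under 5 FPKM, 6.31% were higher and 4.41% lower by unadjusted p, whereas of the 59 fbxb genes in that range 19 were higher and 0 lower. The mutant libraries were all above the wild type in 30 of these 59 genes and all below in 0, against 13.2% and 9.49% of the protein-coding genes of that range.

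The filter at 1 FPKM used the mean of all 6 libraries, and 14 of the 65 tested fbxb genes had a wild-type mean under 1 FPKM, so they passed through the mutant values. The other 51 included 40 positive differences and 16 of the 20 genes higher by unadjusted p. With no filter on level, 78 of the 92 fbxb genes with a read were positive, against 12662 of all 27311 genes with a read. The median log2 difference of the 92 was 0.44, and 30 were higher by unadjusted p, against 4.79% of the 27311 genes. Among genes averaging 10 or more recovered reads, 42 of 83 were higher, against 8.93%. In voom on recovered reads 28 of 65 were higher, against 6.88%, and in voom on genes averaging 10 or more reads 36 of 83, against 7.79%. The count was smaller when single libraries were left out: 8 fbxb genes were higher without mutant replicate 2 (against 4.83% of all genes tested there), 15 without mutant replicate 1 (8.85%) and 19 without mutant replicate 3 (8.73%). When a wild-type library was dropped the count was 13 for replicate 1 (6.97%), 9 for replicate 2 (4.59%) and 12 for replicate 3 (4.49%).

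**Figure D2:**
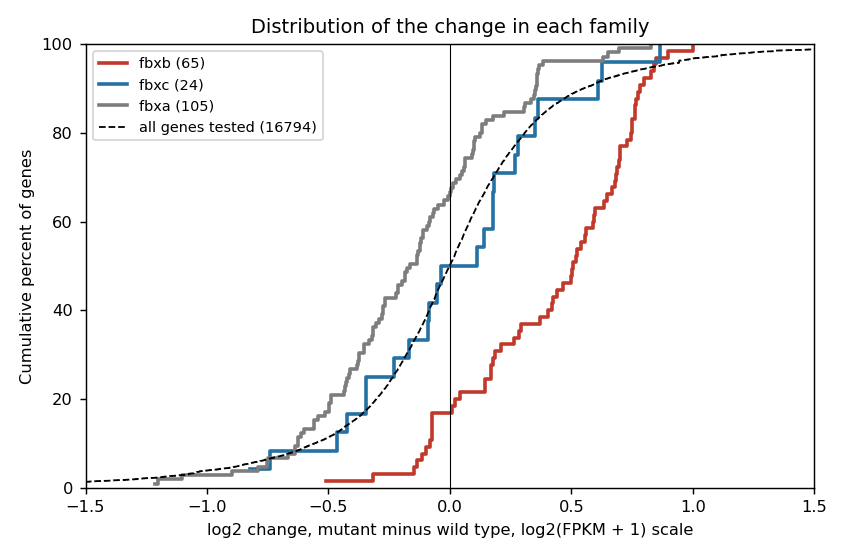
Cumulative percent of genes by the difference between mutant and wild type on log2(FPKM + 1), for the tested fbxb, fbxc and fbxa genes, with a dashed curve for all tested genes. The difference is above 0 in 54 of 65 fbxb genes, 12 of 24 fbxc genes and 35 of 105 fbxa genes, against 8366 of 16794 tested genes.

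The 20 fbxb genes higher by unadjusted p were low to moderate in level, with means of 1.47 to 5.15 FPKM over the 6 libraries resting on 31.2 to 104.5 reads per library. Their means were 1.63 to 2.60 times as high in the mutant, with a median of 2.15, and in all 20 the groups did not overlap. Adjusted p-values ran from 0.162 to 0.355 in limma. The lowest p belonged to fbxb-72 (gene 178582, chromosome V, 722646 to 723952, minus strand). It measured 5.89, 7.51 and 6.503 FPKM in the mutant and 2.08, 2.91 and 3.58 FPKM in the wild type, on 128 to 153 reads per mutant library and 50 to 77 reads per wild-type library. Every mutant library was far above the wild-type range, and the log2 difference was 1.00 ± 0.20 (SE; limma adjusted p = 0.162).

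fbxb-17 (chromosome II, 1676388 to 1677439) measured 4.87, 6.77 and 4.01 FPKM in the mutant and 1.72, 2.71 and 2.502 FPKM in the wild type, without overlap. fbxb-91 (chromosome II, 3749061 to 3750785) measured 6.35, 7.13 and 4.75 FPKM in the mutant and 3.31, 2.34 and 3.27 FPKM in the wild type, again without overlap. Their log2 differences were 0.90 ± 0.23 and 0.83 ± 0.21 (SE), with limma adjusted p-values of 0.213 and 0.201. fbxb-104 (chromosome II, 3475630 to 3477271) measured 2.69, 2.71 and 2.29 FPKM in the mutant and 1.22, 1.04 and 0.732 FPKM in the wild type. In this gene the 3 mutant libraries lay close together, at 40 to 62 reads each, and all above the 14 to 26 reads of the wild-type libraries.

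fbxb-24 and fbxb-84 lie on chromosome III, at 11908960 to 11909948 and at 142093 to 146482. fbxb-24 measured 5.49, 6.35 and 5.22 FPKM in the mutant and 3.49, 2.12 and 3.34 FPKM in the wild type. fbxb-84 measured 7.09, 7.56 and 5.21 FPKM in the mutant and 4.10, 3.08 and 3.85 FPKM in the wild type. Both were without overlap between strains, at log2 differences of 0.76 ± 0.20 and 0.70 ± 0.19 (SE) and adjusted p-values of 0.217 and 0.234 in limma. fbxb-24 overlaps faah-4, and the span of fbxb-84 covers fbxb-82 and fbxb-83, so part of their reads may belong to those genes. fbxb-65 (chromosome V, 19329563 to 19330757) showed the smallest fold of the 20 and a narrow spread, with 4.40, 4.32 and 3.95 FPKM in the mutant and 2.57, 2.78 and 2.44 FPKM in the wild type.

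These 7 genes (fbxb-72, fbxb-17, fbxb-91, fbxb-104, fbxb-24, fbxb-84 and fbxb-65) kept an unadjusted p under 0.05 in each of the 14 other analyses run, which included leaving out each library. fbxb-48 lost it only without mutant replicate 3, fbxb-54 only without mutant replicate 2, and fbxb-92 only without mutant replicate 2 or wild-type replicate 2. The other 10 lost it in 4 to 8 of the 14. They were fbxb-15, fbxb-22, fbxb-37, fbxb-49, fbxb-75, fbxb-90, fbxb-96, fbxb-103, fbxb-105 and fbxb-108. In several of them 1 mutant library was much higher than the others. fbxb-96 measured 2.21, 4.38 and 2.27 FPKM in the mutant and 1.27, 1.29 and 1.07 FPKM in the wild type, and fbxb-15 measured 8.68, 5.25 and 4.27 FPKM in the mutant and 3.55, 2.87 and 3.37 FPKM in the wild type. Unadjusted p-values were above 0.05 for fbxb-96 without mutant replicate 2 or any 1 of the wild-type libraries, and for fbxb-15 without mutant replicate 1, mutant replicate 2 or any 1 of the wild-type libraries.

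**Figure D3:**
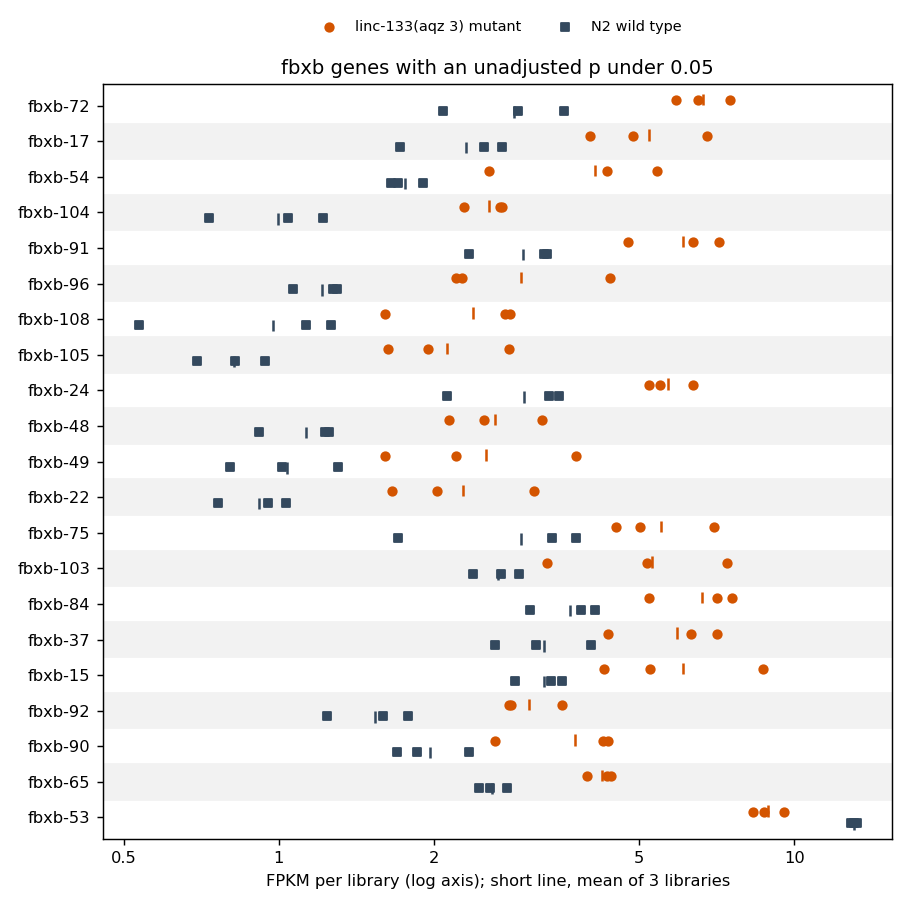
Level in each library, in FPKM on a log axis, of the 21 fbxb genes with an unadjusted limma p under 0.05, mutant in circles and wild type in squares, with a short line at each strain's mean. In 20 genes the 3 mutant libraries lie right of the 3 wild-type libraries, and in fbxb-53, at the bottom, they lie left of them.

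The exception was also the most abundant fbxb gene. fbxb-53 (gene 43578480, chromosome II, 1756846 to 1759452, plus strand) measured 8.75, 8.31 and 9.55 FPKM in the mutant, on 310 to 416 reads, and 13.2, 12.9 and 13.1 FPKM in the wild type, on 515 to 581 reads. The groups were well apart, with a log2 difference of -0.51 ± 0.12 (SE; limma adjusted p = 0.188), and it kept an unadjusted p under 0.05 in the 14 other analyses. It overlaps the gene F36H5.10, so its reads may be shared. Among the 33 tested fbxb genes of chromosome II, fbxb-53 was the only 1 with a negative difference. With no filter on level, 46 of the 47 fbxb genes of chromosome II with a read were positive and 1 negative. Of the protein-coding genes of chromosome II with a read, 1647 of 3245 were positive. Neighbouring copies may share reads, so these are not 47 separate results.

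In the fbxc family the strains overlapped. Over the 24 tested fbxc genes the median level was 4.73, 3.22 and 2.69 FPKM in the mutant libraries and 4.23, 3.40 and 2.74 FPKM in the wild-type libraries. The levels of all 48 summed to 272, 186 and 160.1 FPKM in the mutant and 259.8, 226 and 214 FPKM in the wild type; mutant replicate 1 was the highest of the 6 libraries and mutant replicates 2 and 3 the lowest. Of the 24 genes, 12 were positive and 12 negative, the median log2 difference was 0.04, and 1 was higher and 1 lower by unadjusted limma p, against 7.22% and 6.48% of all tested genes. Of the 24, 2 had a wild-type mean under 1 FPKM and both were positive. Among the 22 others 10 were positive. The mutant libraries were all above the wild type in 3 of the 24 genes and all below in 2, against 10.5% and 9.54%. These counts are near or below the shares over all genes. Without mutant replicate 1 the median was -0.072, and 0 of 23 fbxc genes were higher, against 8.85% of all genes tested there, and 5 were lower, against 7.81%. The difference between the fbxb and the fbxc family was not itself tested.

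The fbxc genes of highest level were fbxc-51, fbxc-58, fbxc-52, fbxc-36, fbxc-54 and fbxc-7. fbxc-51 (gene 173467, chromosome II, 868814 to 871699, plus strand) is the most abundant member of both families, with 79.3, 43.3 and 42.3 FPKM in the mutant and 68.6, 63.8 and 54.1 FPKM in the wild type. fbxc-58 (gene 182493, chromosome IV, 9371508 to 9373207) measured 42.8, 21.6 and 15.1 FPKM in the mutant and 49.3, 39.2 and 36.1 FPKM in the wild type. fbxc-52 (gene 173715, chromosome II, 3717261 to 3719772) measured 35.9, 22.7 and 19.3 FPKM in the mutant and 37.4, 32.5 and 27.4 FPKM in the wild type. In each of the 3 genes mutant replicate 1 fell within or above the wild-type range and mutant replicates 2 and 3 below it. Their log2 differences were -0.23 ± 0.26 for fbxc-51, -0.74 ± 0.36 for fbxc-58 and -0.35 ± 0.25 for fbxc-52 (SE), with limma adjusted p-values of 0.744, 0.418 and 0.590. Without mutant replicate 1 the differences were -0.52, -1.14 and -0.60, each at an unadjusted p under 0.05.

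fbxc-54 (gene 184901, chromosome II, 31719 to 33611, near the left end) was the fbxc gene lower by unadjusted p. It measured 8.03, 7.81 and 4.93 FPKM in the mutant and 12.4, 13.6 and 12.3 FPKM in the wild type. The strains did not overlap, and the log2 difference was -0.82 ± 0.20 (SE; limma adjusted p = 0.185), with an unadjusted p under 0.05 in the 14 other analyses as well. fbxc-18 (gene 183117, chromosome II, 965575 to 967062) was the fbxc gene higher by unadjusted p, with 4.69, 4.23 and 2.65 FPKM in the mutant and 1.75, 2.55 and 2.04 FPKM in the wild type. Mutant replicate 3 was only just above the highest wild-type library, and the difference of 0.62 ± 0.24 (SE; limma adjusted p = 0.331) lost its unadjusted p in 6 of the 14 other analyses, among them those without mutant replicate 1 or 2 and without wild-type replicate 1 or 3. fbxc-18 overlaps C32B5.6.

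**Figure D4:**
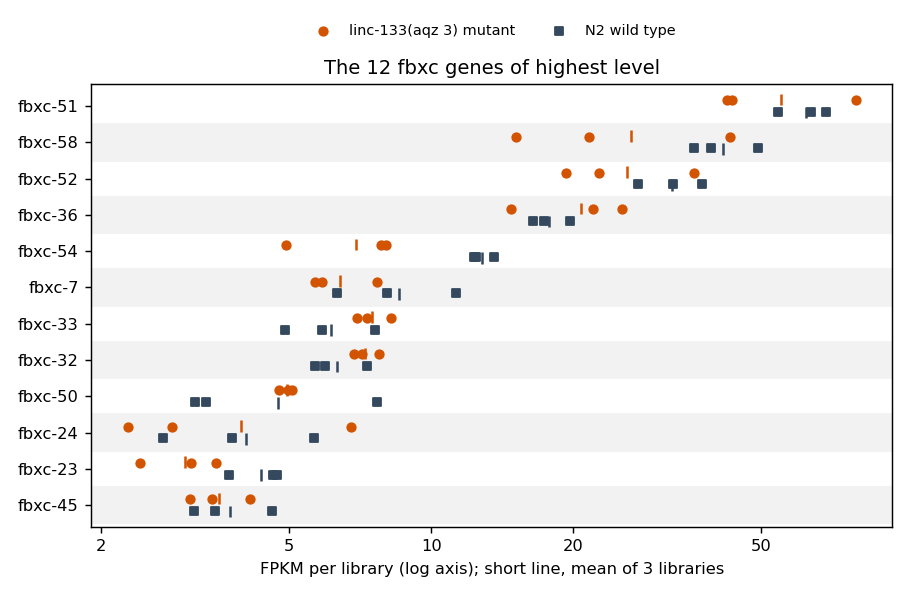
Level in each library, in FPKM on a log axis, of the 12 fbxc genes of highest level, mutant in circles and wild type in squares, with a short line at each strain's mean. Mutant replicate 1 spreads the mutant points of fbxc-51, fbxc-58 and fbxc-52, whereas fbxc-54 lies lower in the mutant without overlap.

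By domain entry, the 18 tested fbxc genes that list DUF3557 had 12 positive and 6 negative differences, with a median log2 difference of 0.18, and the 6 tested genes that list no entry were negative, with a median of -0.26. Among fbxc genes with any read, 19 of 26 with DUF3557 and 4 of 14 with no entry were positive. The genes past an unadjusted p of 0.05, fbxc-18 and fbxc-54, both list DUF3557, and this split was chosen after the values were seen. Among the fbxb genes the 6 tested genes with both the F-box and the F-box associated entry had a median of 0.55, the 55 with the F-box associated entry alone 0.52 and the 4 with none 0.29.

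The members lie mostly on chromosome II, which holds 58 of the 104 fbxb genes and 35 of the 48 fbxc genes; the other 13 fbxc genes are on chromosome IV. When runs of at least 3 members with gaps of at most 20 kb were taken as clusters, 99 of the 152 members fell into 15 clusters, and 53 lay outside. Clusters of fbxb genes alone numbered 11, there was 1 of fbxc genes alone, and 3 held both families. On chromosome II there were 9 of the 15 clusters. The fbxc genes outside clusters were the stronger ones, with a median level of 3.40 FPKM over 16 genes, against 0.250 FPKM over the 32 in clusters. For fbxb genes the medians were 1.72 FPKM over 37 genes outside and 1.27 FPKM over 67 inside.

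The largest cluster ran from 907448 to 1001451 on chromosome II and held 18 fbxc genes with fbxb-29 and fbxb-30. Only 8 of its 20 members were tested and 7 were listed at 0. The tested members differed widely in level, with fbxc-36 at 19.2 FPKM, fbxc-7 at 7.47 FPKM, fbxc-33 at 6.81 FPKM, fbxc-32 at 6.78 FPKM, fbxc-24 at 3.999 FPKM, fbxc-18 at 2.99 FPKM, fbxc-34 at 2.90 FPKM and fbxc-14 at 1.74 FPKM. fbxc-36 measured 25.4, 22.02 and 14.7 FPKM in the mutant and 19.6, 16.4 and 17.4 FPKM in the wild type, with overlap, and passed an unadjusted p of 0.05 only without mutant replicate 3 (log2 difference 0.40). fbxc-7 was lower on average in the mutant, at 5.66, 5.87 and 7.66 FPKM in the mutant and 6.31, 8.07 and 11.3 FPKM in the wild type, also with overlap. Over the 8 genes the log2 differences ran from -0.35 to 0.62, and fbxc-18 was the 1 gene past an unadjusted p of 0.05. The cluster on chromosome IV, from 891213 to 911196, held 10 fbxc genes on the plus strand, all at a mean of 0.188 FPKM or less, and none could be tested.

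Clusters of chromosome II held 12 of the 20 fbxb genes higher by unadjusted p. Tested members include those that passed the filter through the mutant values, 14 fbxb and 2 fbxc genes over all chromosomes, all of them positive. In the cluster from 1536231 to 1571134 the 7 tested genes of 9 were all positive, at log2 differences of 0.14 to 0.85, with fbxb-54 and fbxb-49 higher by unadjusted limma p. In that from 1676388 to 1725693 the 6 tested genes of 12 were positive, at 0.37 to 0.90, among them fbxb-17, fbxb-48 and the fbxc genes fbxc-21 and fbxc-26. The 3 neighbours fbxb-90, fbxb-92 and fbxb-91, on the minus strand from 3746172 to 3750785, had differences of 0.67, 0.68 and 0.83 and an unadjusted p under 0.05 each; fbxb-90 and fbxb-92 overlap, so their reads are not independent. fbxb-108 and fbxb-105 were higher by unadjusted p in the cluster from 2758767 to 2775042, where fbxb-111 and fbxb-106 differed by 0.04 and 0.18.

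Higher values were not restricted to chromosome II. There 14 of 33 tested fbxb genes were higher by unadjusted p, with a median log2 difference of 0.65, and on the other chromosomes together 6 of 32, with a median of 0.27. On chromosome III it was 3 of 6 tested genes, on chromosome IV 1 of 5 and on chromosome V 2 of 12, with medians of 0.72, 0.17 and 0.43. On chromosome I none of 8 tested fbxb genes had an unadjusted p under 0.05 and the median was 0.04, and the 1 tested gene of chromosome X differed by -0.10. Of all tested protein-coding genes, 9.68% were higher on chromosome II, with a median difference of 0.03, and the share was 6.91% on chromosome I, 7.16% on III, 8.87% on IV, 9.33% on V and 6.73% on X. Inside clusters 14 of 41 tested fbxb genes were higher and 0 lower, and outside 6 of 24 were higher and 1 lower, with medians of 0.54 and 0.48. Tested fbxb genes include the 14 that passed the filter through the mutant values, and their division by chromosome or cluster is not given here. Over all fbxb genes with a read, the median log2 difference was 0.59 on chromosome II and 0.22 on the other chromosomes together. Inside clusters it was 0.47 and outside 0.25. The differences between chromosomes and between cluster and non-cluster genes were not tested.

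The spans of the clusters also hold 54 protein-coding genes with no fbx symbol. Of these 23 were tested, 15 were positive, with a median log2 difference of 0.11, and by unadjusted limma p 4 were higher (btb-8, K05F6.4, sdz-4 and sdz-9) and 1 was lower (F07E5.9), against 7.22% and 6.48% of all tested genes. An F-box, F-box associated or DUF3557 entry is listed by 12 of the 54. Genes on any chromosome that share the F-box associated entry but have another symbol, K05F6.4 and sdz-9 among them, were looked at after the fbxb values had been seen. Of 65 listed, 37 were tested, with 24 positive, a median of 0.18, and 7 higher and 3 lower by unadjusted p, against 7.22% and 6.48% of all tested genes. Among the higher ones were sdz-33, at 5.73, 8.43 and 5.45 FPKM in the mutant and 3.46, 2.84 and 4.81 FPKM in the wild type, and pes-2.2, at 3.28, 3.95 and 1.42 FPKM in the mutant and 0.727, 1.08 and 0.271 FPKM in the wild type. Both are without overlap between strains. F56A8.5, the abundant lower one, measured 44.6, 45.3 and 43.9 FPKM in the mutant and 55.7, 61.3 and 62.6 FPKM in the wild type, also without overlap.

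The fbxa family, a further branch of worm F-box proteins, was measured in the same libraries. Of 105 tested fbxa genes, 3 were higher and 15 lower by unadjusted limma p, against 7.22% and 6.48% of all tested genes, with a median log2 difference of -0.16. The mutant libraries were all above the wild type in 6 of the 105 and all below in 22, against 10.5% and 9.54%. The difference between the fbxa and fbxb families was not tested.

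Of 43 listed genes of the SCF machinery, 39 were tested, 10 were higher and 2 lower by unadjusted limma p, against 7.22% and 6.48% of all tested genes, and the median log2 difference was 0.10. The core subunits cul-1, skr-1 and rbx-1 (the RING protein) did not pass an unadjusted p of 0.05: the scaffold cul-1 averaged 35.1 ± 2.85 FPKM in the mutant and 34.1 ± 1.85 FPKM in the wild type, and the main Skp1 adaptor skr-1 averaged 466 ± 3.29 FPKM in the mutant and 487 ± 11.8 FPKM in the wild type (SD, n = 3 each). The lowest p-values were those of Skp1-related adaptors. skr-16, skr-10, skr-7, skr-8 and skr-12 were higher, at 1.67 to 2.68 times the wild-type mean, with adjusted p-values of 0.141 to 0.180 in limma. skr-5, which works with the cullin CUL-6 in the response to intracellular pathogens, was lower, at 9.96, 9.10 and 6.11 FPKM in the mutant and 13.5, 20.1 and 22.7 FPKM in the wild type, and cul-6 was the other lower gene.

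Markers of the early embryo and the germline were measured beside the fbxb genes. The 5 genes pos-1, mex-3, mex-5, mex-6 and pie-1 were all detected and summed to 285, 259.7 and 239 FPKM in the mutant, against 315, 194 and 226 FPKM in the wild type, with overlap, and 0 of the 5 had an unadjusted p under 0.05. The 5 germline markers summed to 131, 166 and 144 FPKM in the mutant and 154, 98.1 and 115 FPKM in the wild type, also with overlap and with 0 of 5 past that p. Some genes met above are described as SKN-1 dependent zygotic transcripts (sdz) and were not among these markers. Of these, sdz-4, sdz-5, sdz-9 and sdz-33 were higher in the mutant at an unadjusted limma p under 0.05. Their log2 differences were 0.70, 0.61, 0.55 and 0.68. sdz-10, sdz-11 and sdz-18 were also positive, at 0.58, 0.52 and 0.46, without passing that p. sdz genes outside the cluster spans and the F-box associated list were not examined here. Whether either stage or tissue has a part in the fbxb levels was not tested.

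The labels name a TruSeq RNA kit, which in its standard form does not mark strand; strandedness was not tested here. Of the 152 members, 64 overlap another listed gene, 51 of them a coding gene and 20 a gene on the opposite strand, and 8 of the 21 fbxb genes with an unadjusted p under 0.05 are among the 64. Reads shared between near-identical copies could also be split or dropped by the authors' counting, so values of single members are less certain than those of genes without close relatives.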

How the data were processed

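RNA sequencing of whole L1-arrested larvae gave 6 libraries, 3 per strain, grouped by the sample titles. Per the labels' protocols, total RNA taken with Trizol was made into libraries with a TruSeq RNA kit and read on an Illumina GAIIx. Per the submitters' processing notes, Bowtie 0.12.2, STAR 2.5.2b, StringTie and the build WBcel235 were used; no source used here gives their roles, the annotation release or the counting of reads that match several loci. The deposited values are FPKM per gene, per the file headers. Multiplied by gene length, 100% of the 131954 nonzero values came within 0.01 of a whole number of reads, so reads were recovered.

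Genes averaging 1 FPKM or more were tested with limma 3.58.1 in R 4.3.3 (trend, robust) on log2(FPKM + 1), all 6 libraries, strain as the term, Benjamini-Hochberg adjustment over all tested genes at a threshold of 0.05; fold changes on this scale understate the change of low genes. The limma fit was also run on simulated reads, whose spread beyond counting noise was set below the residual spread of these libraries. That run need not show how the fit performs here. Alternatives were pseudocounts of 0.5 and 5, no filter, 10 recovered reads, a replicate block, rescaling by recovered reads, voom (also with 10 reads, added after seeing the data) and leaving out each library. Of 152 members, 146 matched the WBcel235 annotation by symbol, 107 with identical ends. Named members were the 6 of highest level per family, those with an unadjusted p under 0.05, the tested members of the largest cluster, those next to 1 FPKM and the 6 Skp1-cullin genes of lowest p; others named were chosen after their values were seen. Pairs of similar proteins were not compared, as no protein sequences were used here. The members and lists were chosen with earlier results of these data known.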

Additional observations from a re-analysis of the deposited data

How the results depend on the processing

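No member passed an adjusted p of 0.05 in any analysis. Over all genes 1 passed with the filter of 10 recovered reads, 28 in voom and 23 in voom with that filter, against 0 otherwise. By unadjusted p, 21 of the 89 tested fbxb and fbxc genes were higher, against 7.22% of all tested genes. With no filter on level 33 of 132 were higher, against 4.79%. The filter of 10 reads kept 83 fbxb and 28 fbxc genes, of which 46 were higher, against 8.93%. In voom with that filter 40 were higher, against 7.79%. Leaving out 1 library gave 8 to 22, against 4.49% to 8.85%. The 2 lower genes, against 6.48% of all tested genes, were 2 to 7 when 1 library was left out. The count of 7 came without mutant replicate 1, where 7.81% of all tested genes were lower. The fbxb median of 0.50 was 0.61 and 0.21 with pseudocounts of 0.5 and 5, by construction farther from and nearer to 0. It was 0.76 in voom and 0.83 in voom with 10 reads, both on a log2 read scale. Without 1 library it was 0.37 to 0.57. The fbxc median of 0.04 was 0.17 in voom with 10 reads and between -0.072 and 0.13 without 1 library. At 5 FPKM, 6 fbxb and 8 fbxc genes were detected. Gaps of 10 and 50 kb put 88 and 107 members in clusters. The sign of 2 named genes depended on 1 library: fbxb-88 (0.02) was -0.22, -0.08 and -0.02 without mutant 1, wild type 2 or wild type 3, within a range of -0.22 to 0.16, and fbxc-24 (-0.09) was 0.04, 0.15 and 0.13 without mutant 2, mutant 3 or wild type 1, within -0.47 to 0.15; the cause was not tested. Over all tested genes, deviations of libraries with the same replicate number were almost uncorrelated (0.02, -0.03 and 0.03). These values cannot exclude a culture or batch shared by number, which was not tested. The median level of the tested fbxc genes fell from replicate 1 to replicate 3 in both strains. With a replicate block 15 members were higher, against 6.31% of all tested genes, and fbxc-58 (-0.74) was lower at an unadjusted p under 0.05. After rescaling by recovered reads, 17 of 65 fbxb and 0 of 24 fbxc genes were higher by unadjusted limma p, against 2 of 105 fbxa genes. The fbxb median was 0.50 there, and the share over all genes in that setting is not given here. Depth limits the weak members: tested members rest on 18 to 1746 reads per library, and 1 read is worth 0.0136 to 0.163 FPKM.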
